A study of Mus musculus with 6 samples.

Results

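Transcripts of 9 genes that write, erase or read methylated cytosine were followed here in mouse embryo fibroblasts (MEFs): Dnmt1, Dnmt3a, Dnmt3b, Uhrf1, Tet1, Tet2, Tet3, Mbd1 and Mbd2. The genes were chosen by name, and all 9 were found among the 29955 genes of the deposited RNA-seq table. MEFs are fibroblasts grown from mid-gestation mouse embryos. RNA came from 3 cultures labelled Rnf40+/+ and 3 labelled Rnf40-/-, all primary and at passage 3. RNF40 is part of the ligase that attaches ubiquitin to histone H2B, and the comparison asks how transcript levels differ when this ligase has been lost. In the Rnf40-/- cells, loxP-flanked exons 3 and 4 of Rnf40 were deleted by a tamoxifen-inducible Cre (CreERT2) expressed from the ubiquitous Rosa26 locus. This was done with 250 nM 4-hydroxytamoxifen (4-OHT) for 5 days, followed by 3 days without it. The methods describe MEFs from embryos that were homozygous for the loxP allele and carried Rosa26-CreERT2. They do not name another source for the cultures labelled Rnf40+/+, and 4-OHT is stated for the knockout, so the deletion, Cre activity and 4-OHT cannot be told apart. The labels also do not say whether the 3 cultures of a genotype came from separate embryos, and the p-values then measure only the spread between these cultures.

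Methylation of cytosine in CpG dinucleotides is copied onto the new DNA strand after replication by DNMT1, which is guided to hemimethylated sites by UHRF1. New sites are methylated by DNMT3A and DNMT3B. The TET dioxygenases oxidize methylated cytosine and so start its removal, and MBD proteins bind methylated CpG and recruit corepressors. In fibroblasts this system is known for keeping germline genes, imprinted alleles and repeats silent.

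The libraries held 17053436 to 26344170 reads on genes in the Rnf40+/+ group and 18115481 to 20495627 in the Rnf40-/- group. Levels are given as normalized counts, which are reads divided by a DESeq size factor for each library. Of all genes, 16378 had enough reads to be tested. Rnf40 itself, counted over the whole gene, had 482 ± 39.9 normalized counts in Rnf40-/- MEFs against 1190 ± 91.2 in Rnf40+/+ MEFs (SD, n = 3 each). All 13 fibroblast markers had enough reads for a test. Their summed level was 716700 to 795800 normalized counts in Rnf40+/+ and 436300 to 438000 in Rnf40-/- libraries. Of these 13 markers, 11 were lower in Rnf40-/- MEFs (limma adjusted p under 0.05). Among all genes tested, 24.1% were lower and 23.3% higher. Macrophage markers summed to between 6564 and 13180 in Rnf40+/+ and between 4036 and 4642 in Rnf40-/- libraries, with 6 of 12 lower and 2 higher. The sums of epithelial markers (42.8 to 109.9 and 61.4 to 85.7), endothelial markers (148.5 to 285 and 250 to 346.5), skeletal muscle markers (213 to 1524 and 234.5 to 241) and neural markers (3316 to 4784 and 2345 to 2691) were small beside those of the fibroblast markers, and the defining muscle marker Myod1 was at 0 reads throughout. Of the markers tested in these lists, 1 of 4 epithelial ones was higher, 3 of 6 endothelial ones were higher (Cdh5, 3.26, Pecam1, 2.58, and Kdr, 1.56) and 1 was lower (Emcn, -1.15), 1 of 3 muscle ones was higher (Chrna1, 1.23) and 1 lower (Des, -2.38), and 1 of 5 neural ones was lower (Nes, -1.11), as log2 fold changes. The high muscle sum of Rnf40+/+ replicate 1 came with 785 reads of Actc1, which had 1 to 10 reads in the other libraries. That library also had the most reads of Des (361), Ttn (70), Tek (96), Krt8 (49) and Snap25 (33). Other markers, such as Chrna1 (55 reads) and Emcn (114 reads), were not highest there. In such bulk RNA, fewer cells of a type and less RNA per cell cannot be told apart. The part of these marker differences in the values below was not tested.

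Promoter sequences of Uhrf1 and Dnmt1, the members whose transcripts fell, are printed first, beside that of Tet3. They were picked after the values were seen, and a link between their letters and the transcript levels was not tested. RefSeq windows of 300 bases were used (250 before and 50 after a transcription start, build GRCm38.p6). They covered 7 of the 9 members, in 12 windows. No window of Mbd1 or Mbd2 was examined, so nothing is known here about the letters of their promoters. Each printed window had 1 exact match in the mm9 genome, and positions are given for mm9. Capitals mark an E2F-type run of letters, searched on both strands as TTTCCCGC, TTTCGCGC, TTTGCCGC or TTTGGCGC. E2F factors are known to drive genes of the G1/S transition.
Uhrf1, first window, plus strand, chr17:56442510-56442809: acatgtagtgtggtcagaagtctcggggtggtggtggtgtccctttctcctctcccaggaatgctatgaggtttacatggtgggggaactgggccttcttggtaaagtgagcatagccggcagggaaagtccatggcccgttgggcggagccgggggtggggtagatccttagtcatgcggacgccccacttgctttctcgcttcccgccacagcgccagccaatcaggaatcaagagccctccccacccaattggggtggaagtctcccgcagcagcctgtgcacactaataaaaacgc
Uhrf1, second window, plus strand, chr17:56443486-56443785: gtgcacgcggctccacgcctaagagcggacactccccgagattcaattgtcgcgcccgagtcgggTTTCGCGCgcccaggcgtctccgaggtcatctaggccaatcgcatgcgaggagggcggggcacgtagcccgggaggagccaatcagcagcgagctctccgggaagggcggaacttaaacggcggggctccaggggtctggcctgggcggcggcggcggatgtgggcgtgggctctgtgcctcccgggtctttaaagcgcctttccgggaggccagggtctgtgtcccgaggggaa
Dnmt1, the third window, minus strand, chr9:20757018-20757317: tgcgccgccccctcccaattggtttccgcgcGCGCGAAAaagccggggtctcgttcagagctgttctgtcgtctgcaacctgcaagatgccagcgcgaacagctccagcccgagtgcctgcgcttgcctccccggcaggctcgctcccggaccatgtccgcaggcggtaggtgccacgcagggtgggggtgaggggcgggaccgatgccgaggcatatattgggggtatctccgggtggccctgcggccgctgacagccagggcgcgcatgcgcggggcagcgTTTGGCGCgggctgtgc
Tet3, the only window, minus strand, chr6:83391623-83391922: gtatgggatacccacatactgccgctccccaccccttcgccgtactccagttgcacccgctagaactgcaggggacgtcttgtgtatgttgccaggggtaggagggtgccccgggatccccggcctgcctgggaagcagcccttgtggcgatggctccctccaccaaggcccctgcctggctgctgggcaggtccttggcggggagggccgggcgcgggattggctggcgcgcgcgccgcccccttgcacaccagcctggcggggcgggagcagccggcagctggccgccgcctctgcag
Of the 12 windows, 10 held no such run. The second window of Uhrf1 held a run at positions -185 to -178 from the transcription start of that window. The third window of Dnmt1 held runs at positions -219 to -212 and 33 to 40. The first of these reads GCGCGAAA on the printed strand, which is TTTCGCGC on the other. These transcription starts lay 992 (Uhrf1) and 250 (Dnmt1) bases downstream of the annotated mm9 gene starts, so both windows were inside the annotated genes. The windows with starts nearest the annotated ones, the first of Uhrf1 (16 bases) and the second of Dnmt1 (106 bases), held no run. The first and second windows of Dnmt1 are not printed. Of all 32851 RefSeq windows, 2.26% held a run, and counted by gene it was 2.6% of 27025 genes. Both windows with a run were rich in CpG, with 33 CpG dinucleotides each, more than in 91.4% of all windows. The first window of Uhrf1 had 12 CpG and no run, and the window of Tet3, shown as a member whose transcript did not fall, had 22 CpG and no run. CCAAT, searched on both strands, is a common promoter element that 37.4% of all windows held. It occurred 3 times in the first and 2 times in the second window of Uhrf1, 3 times in the third window of Dnmt1 and 1 time in that of Tet3. Such a match is a description of letters, and no binding was measured here.

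Uhrf1, whose product recognizes hemimethylated CpG and brings DNMT1 to replicating DNA, had by far the largest change among the 9 genes. Normalized counts of Uhrf1 were 395, 347 and 422 in Rnf40+/+ MEFs and 97.9, 56.4 and 69.9 in Rnf40-/- MEFs. Every Rnf40-/- library was thus far below every Rnf40+/+ library, although the Rnf40-/- values differed among themselves. The means were 388 ± 38.0 and 74.7 ± 21.2 (SD, n = 3 each), so that 19.3% of the Rnf40+/+ level remained. On the log2 scale the fold change was -2.39 (standard error 0.19, Benjamini-Hochberg adjusted p = 1.09e-06 by limma, over all genes tested). Fold changes are on the log2(normalized count + 1) scale throughout, Rnf40-/- over Rnf40+/+. Only 100 of the 16378 genes tested (0.611%) had a more negative fold change. Leaving out single libraries gave values from -2.60 to -2.21. The gene (ENSMUSG00000001228) is annotated in mm9 on chromosome 17, plus strand, from 56442744 to 56462909. The values rest on 331 to 528 reads in Rnf40+/+ and 54 to 96 reads in Rnf40-/- libraries.

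Dnmt1, the maintenance methyltransferase itself, fell far less. It had 1181, 1100 and 1090 normalized counts in Rnf40+/+ libraries and 837, 892 and 788 in Rnf40-/- libraries. The groups did not overlap, and the libraries of a genotype lay close together. The means were 1124 ± 49.9 and 839 ± 52.0 (SD, n = 3 each), or 74.7% of the Rnf40+/+ level. This is a log2 fold change of -0.42 (standard error 0.08, limma adjusted p = 0.000718), and leaving out single libraries gave values from -0.47 to -0.38. More negative fold changes were found for 21.5% of the genes tested. Dnmt1 (ENSMUSG00000004099) lies on the minus strand of chromosome 9, from 20711650 to 20757317.

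The ratio of these maintenance partners therefore differed between the genotypes. On the log2 scale, the ratio of Uhrf1 to Dnmt1 was -1.58, -1.66 and -1.37 in Rnf40+/+ MEFs and -3.08, -3.96 and -3.48 in Rnf40-/- MEFs, a difference of -1.97 between the genotype means. The ratio was taken between normalized counts + 1. UHRF2, a paralog of UHRF1, is not known to replace it in maintenance methylation. Uhrf2 transcripts had 1732, 1205 and 1266 normalized counts in Rnf40+/+ and 1239, 1315 and 1245 in Rnf40-/- libraries, with overlapping groups and a log2 fold change of -0.13 (95% interval -0.38 to 0.12). Per length of the longest coding transcript, Uhrf1 made up 21.7% ± 3.19 of the Uhrf1 and Uhrf2 level in Rnf40+/+ MEFs and 5.51% ± 1.6 in Rnf40-/- MEFs (SD, n = 3 each). Per length of all annotated exons merged, which is much longer for Uhrf2, the shares were 36.1% and 10.6%.

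**Figure D1:**
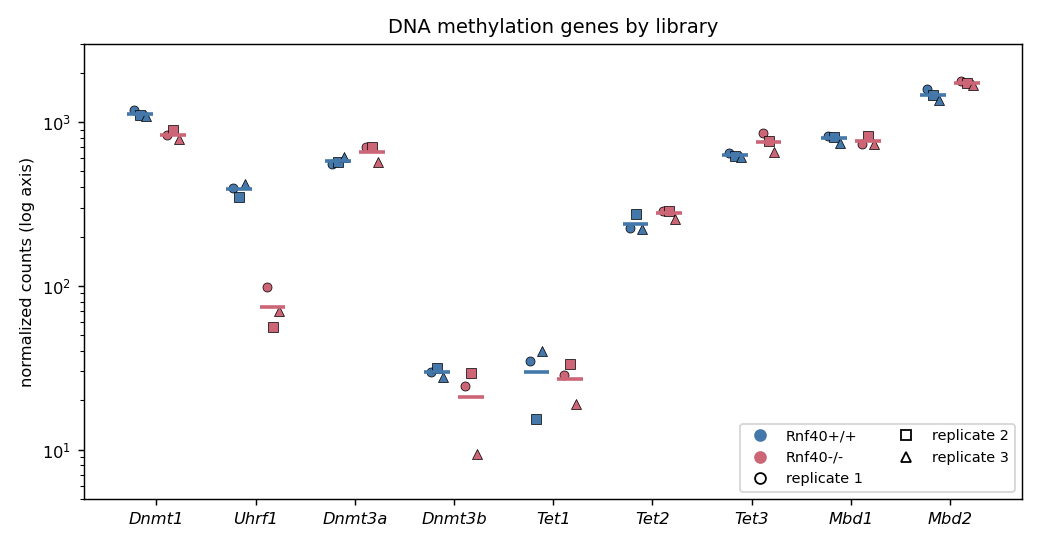
Normalized counts of the 9 genes (logarithmic vertical axis) in the 3 Rnf40+/+ libraries (blue) and the 3 Rnf40-/- libraries (red), with a marker shape for each replicate number and a bar at each mean. Uhrf1 falls from between 347 and 422 to between 56.4 and 97.9, Dnmt1, Tet3 and Mbd2 separate by much less, and the other genes overlap between genotypes.

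The de novo methyltransferases did not pass the threshold. Dnmt3a, which methylates new sites in most somatic tissues, had 555, 574 and 614 normalized counts in Rnf40+/+ and 706, 700.3 and 569 in Rnf40-/- libraries. Rnf40-/- replicates 1 and 2 were above all Rnf40+/+ libraries, while replicate 3 was not. Its log2 fold change was 0.17 (95% interval -0.04 to 0.39, limma adjusted p = 0.168). Without Rnf40-/- replicate 3 it was 0.28 and past the threshold (limma adjusted p = 0.0361). Dnmt3a (ENSMUSG00000020661) lies on chromosome 12, from 3806007 to 3914443, and its exons share 133 bases with those of the antisense gene Gm10485.

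Dnmt3b, the methyltransferase known best from early embryos and stem cells, was near the lower end of what could be measured. It had 29.9, 31.6 and 27.9 normalized counts in Rnf40+/+ libraries, from 25, 31 and 35 reads. In Rnf40-/- libraries it had 24.5, 29.2 and 9.44, from 24, 28 and 10 reads. Replicates 1 and 2 of Rnf40-/- were close to the Rnf40+/+ range, and replicate 3 had the lowest value. The log2 fold change of -0.62 had a 95% interval from -1.47 to 0.24 (limma adjusted p = 0.217), and leaving out Rnf40-/- replicate 3 gave -0.15. The gene (ENSMUSG00000027478) lies on the plus strand of chromosome 2, from 153475186 to 153513466.

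Per length, Dnmt1 was the main transcript of the 3 methyltransferases in both genotypes. Its share of their summed level was 77.7%, 75.8% and 74.8% in Rnf40+/+ and 67.0%, 68.2% and 71.1% in Rnf40-/- libraries. Dnmt3a took 21.4% ± 1.52 and 29.2% ± 1.39, and Dnmt3b 2.46% ± 0.170 and 2.05% ± 0.891 (SD, n = 3 each). The shares of Dnmt1 and Dnmt3a did not overlap between genotypes, and both gave p = 0.1 in an exact permutation test (two-sided), the smallest p that 3 against 3 libraries can give. The difference in the share of Dnmt3a was 7.79 percentage points with the longest coding transcript as length and 5.69 with merged exons. The log2 ratio of Dnmt1 to Dnmt3a was 0.95 ± 0.13 and 0.35 ± 0.11.

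The TET genes, which encode the erasers, showed a small rise of Tet3 and no call for Tet1 or Tet2. Tet3 had 652, 621 and 613 normalized counts in Rnf40+/+ and 863, 763 and 658 in Rnf40-/- libraries. The groups did not overlap, but Rnf40-/- replicate 3 was close to the highest Rnf40+/+ library. The means were 629 ± 20.5 and 761 ± 102 (SD, n = 3 each), and the log2 fold change was 0.27 (standard error 0.10, limma adjusted p = 0.0422). This call did not hold without Rnf40+/+ replicate 2 (0.26, limma adjusted p = 0.102), Rnf40+/+ replicate 3 (0.25, adjusted p = 0.0667), Rnf40-/- replicate 1 (0.17, adjusted p = 0.216) or Rnf40-/- replicate 2 (0.26, adjusted p = 0.109). It was also lost when genes with few reads were tested too (limma adjusted p = 0.0515). Tet3 (ENSMUSG00000034832) lies on the minus strand of chromosome 6, from 83312367 to 83391672.

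Tet2, a TET protein without its own CXXC domain, had 225, 274 and 221 normalized counts in Rnf40+/+ and 285.5, 288 and 258 in Rnf40-/- libraries. Rnf40+/+ replicate 2 lay among the Rnf40-/- values, so the groups overlapped. Its log2 fold change was 0.21 (95% interval -0.05 to 0.47, limma adjusted p = 0.171). Tet2 (ENSMUSG00000040943) lies on the minus strand of chromosome 3, from 133126643 to 133207354.

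Tet1, known best from embryonic stem cells and germ cells, was the lowest of the 9 genes per length. It had 34.6, 15.3 and 39.9 normalized counts in Rnf40+/+ and 28.6, 33.4 and 18.9 in Rnf40-/- libraries, from 15 to 50 reads. The groups overlapped fully. The log2 fold change of -0.08 had a wide 95% interval, from -0.91 to 0.75 (limma adjusted p = 0.883), and its sign changed when single libraries were left out. Tet1 (ENSMUSG00000047146) lies on the minus strand of chromosome 10, from 62267318 to 62361866. Tet3 took 67.2% ± 2.15 of the summed TET level per length in Rnf40+/+ and 68.4% ± 1.82 in Rnf40-/- MEFs, Tet2 30.4% ± 3.14 and 29.8% ± 1.84, and Tet1 2.44% ± 1.10 and 1.83% ± 0.392 (SD, n = 3 each). The exact permutation test (two-sided) gave p = 0.6 for Tet3, p = 0.8 for Tet2 and p = 0.5 for Tet1.

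**Figure D2:**
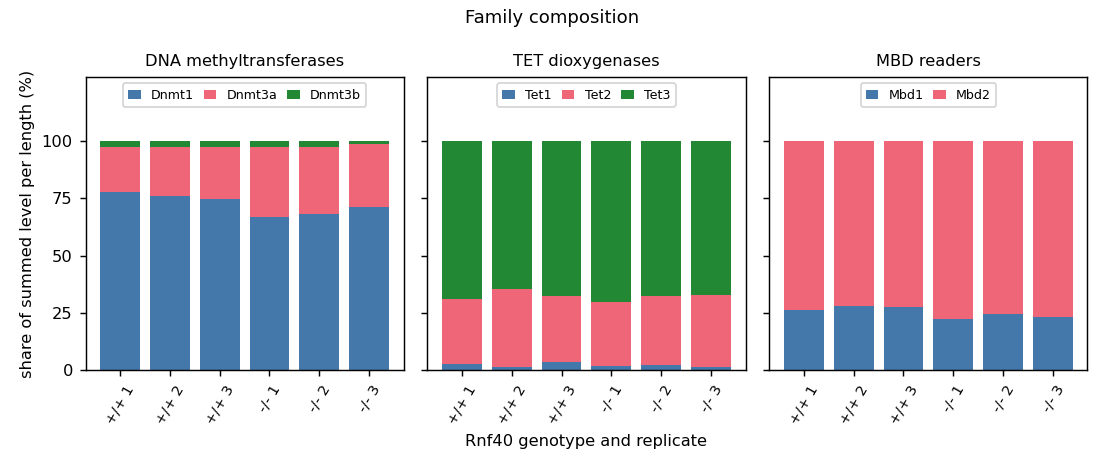
Share in percent of each gene in the summed level per length of its family, for each of the 6 libraries, as stacked bars from 0 to 100. Dnmt1 holds 74.8% to 77.7% of the methyltransferase bar in Rnf40+/+ and 67.0% to 71.1% in Rnf40-/- libraries, while the TET bars overlap between genotypes.

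Of the readers, Mbd2 rose slightly and Mbd1 did not pass the threshold. Mbd2, which joins the NuRD corepressor complex to methylated CpG, had 1588, 1466 and 1367 normalized counts in Rnf40+/+ and 1792, 1744 and 1682 in Rnf40-/- libraries. The lowest Rnf40-/- library was above the highest Rnf40+/+ library. The means were 1474 ± 111 and 1739 ± 55.1 (SD, n = 3 each), and the log2 fold change was 0.24 (standard error 0.07, limma adjusted p = 0.0164). The call was lost without Rnf40-/- replicate 1 (0.22, limma adjusted p = 0.0801) and likewise when Rnf40-/- replicate 2 was left out (0.24, limma adjusted p = 0.0537). Mbd2 (ENSMUSG00000024513) lies on the plus strand of chromosome 18, from 70727843 to 70785785.

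Mbd1, which also binds DNA through CXXC domains, had 820.4, 816 and 747 normalized counts in Rnf40+/+ and 735, 820.3 and 732 in Rnf40-/- libraries. Rnf40-/- replicate 2 was as high as the highest Rnf40+/+ libraries. The log2 fold change of -0.06 had a 95% interval from -0.24 to 0.12 (limma adjusted p = 0.567). Mbd1 (ENSMUSG00000024561) is on the same chromosome, from 74427926 to 74442339. Mbd2 made up 72.9% ± 0.764 of the summed level of both genes per length in Rnf40+/+ and 76.8% ± 1.22 in Rnf40-/- MEFs (SD, n = 3 each). These shares did not overlap (exact permutation test, two-sided, p = 0.1, the smallest possible). With merged exons as length, the mean shares of Mbd2 were 62.55% in Rnf40+/+ and 67.29% in Rnf40-/- MEFs.

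In all, 4 of the 9 genes passed the limma threshold (adjusted p under 0.05), namely Uhrf1 and Dnmt1, which were lower, and Tet3 and Mbd2, which were higher. Among all genes tested, 47.4% passed, with 24.1% lower and 23.3% higher, so the share of members called was near the background. The groups did not overlap for these 4 members, against 56.5% of all genes tested (28.7% lower and 27.8% higher). The median log2 fold change of the 9 members was -0.06 and that of all genes tested was -0.0035. The criteria of the study (mean above 15, unadjusted p under 0.05, absolute log2 fold change above 1) were applied to limma values. The study itself used DESeq. With limma values Uhrf1 was the only member called, while 5.7% of all genes were called lower and 4.25% higher. Per length of the longest coding transcript, the order of levels in Rnf40+/+ MEFs was Mbd2 (755 ± 56.7 normalized counts per kilobase), Mbd1 (280.5 ± 14.4), Dnmt1 (213.5 ± 9.47), Uhrf1 (108 ± 10.6), Dnmt3a (60.01 ± 3.099), Tet3 (57.7 ± 1.88), Tet2 (26.2 ± 3.24), Dnmt3b (6.90 ± 0.424) and Tet1 (2.08 ± 0.902). Of these neighbours, the libraries of Dnmt3a and Tet3 overlapped, and with merged exons as length Dnmt3a (34.9) came below Tet3 (56.7). In Rnf40-/- MEFs Uhrf1, at 20.8 ± 5.91, had moved below Tet3 (69.8 ± 9.38), Dnmt3a (68.0 ± 7.97) and Tet2 (30.2 ± 1.83), and there the libraries of Tet3 and Dnmt3a overlapped, as did those of Dnmt3b and Tet1.

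The genes whose profile was most like that of a called member were taken from the 11548 other genes with a mean above 100, by the root mean square difference of log2 values over the 6 libraries, each centred on the Rnf40+/+ mean. For Uhrf1 these were Racgap1 (0.14), Bub1b (0.16) and Birc5 (0.21), against a median of 1.70 over all genes compared. For Dnmt1 they were Eif4a2 (0.03), Cpt1c (0.04) and Phkb (0.04), for Tet3 they were Ap4e1 (0.03), Gm13251 (0.04) and Cnot6l (0.05), and for Mbd2 they were Zcchc2 (0.02), Ehbp1 (0.03) and Shq1 (0.03). The medians were 0.36, 0.31 and 0.28 for these 3 members. The 6 libraries fall into 2 genotypes, which all these profiles share.

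Several genes that act beside Uhrf1 and Dnmt1 at replicating DNA were lower as well. Of 11 listed partners of the methyltransferases, 10 were tested, 5 were lower, 2 were higher and 3 did not pass the threshold, with a median log2 fold change of -0.25 (24.1% lower and 23.3% higher among all genes). Hells, a chromatin remodeler needed for methylation of repeats, had 297, 230.5 and 211 normalized counts in Rnf40+/+ and 64.2, 66.8 and 67.0 in Rnf40-/- libraries (log2 fold change -1.87, standard error 0.16, limma adjusted p = 2.51e-06). Cdca7, which activates HELLS, had 197, 188 and 159 against 36.7, 45.9 and 33.1 (log2 fold change -2.21). Lig1, the ligase that joins Okazaki fragments, had 345, 331 and 355 against 117, 119 and 132 (log2 fold change -1.48). None of these 3 genes, named as the largest falls of the list, overlapped between genotypes. Among all genes tested, 56.5% did not overlap (28.7% lower). Pcna, the replication clamp to which DNMT1 binds, fell by only 0.38 on the log2 scale, close to Dnmt1, and is named here after its values were seen. The genes that rose were Usp7, a deubiquitinase that binds both DNMT1 and UHRF1 (2147, 2114 and 1952 against 3206, 3215 and 2920, log2 fold change 0.59), and Qser1, which shields CpG islands from methylation (672, 671 and 651 against 906.5, 914 and 769, log2 fold change 0.37). Among the partners whose promoter windows were examined, the E2F-type run of letters was found in 3 of 10, namely Hells, Cdca7 and Lig1.

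Genes of DNA synthesis fell alongside. Of 25 S-phase genes listed, 22 were lower, none was higher and 3 did not pass the threshold (edgeR and DESeq2 also called 22 lower and 0 higher), with a median log2 fold change of -1.21, against 24.1% of all genes that were lower. The largest falls were those of Tk1 (-2.60), Mcm3 (-2.51) and Mcm2 (-2.32), an enzyme of thymidine salvage and subunits of the replicative helicase. Uhrf1 fell more than all but 2 of these genes, while 21 of the 25 fell more than Dnmt1. Against the Rnf40+/+ mean, the S-phase list had a median of -1.11, -1.28 and -1.07 across Rnf40-/- and 0.12, -0.11 and -0.03 across Rnf40+/+ libraries. Mki67, a marker of cycling cells, had 494, 477 and 581 normalized counts in Rnf40+/+ and 77.5, 62.6 and 74.6 in Rnf40-/- libraries. The share of cycling cells was not measured, and its part in the fall of Uhrf1 and Dnmt1 was not tested. The E2F-type run of letters was in a window of 8 of the 20 S-phase genes looked up, including Pola1, which did not pass the threshold. Of the lists described below, 2 of 20 germline genes held it (Sycp3 and Slc25a31). It was in 0 of 16 demethylation partners, 0 of 7 other readers, 0 of 8 NuRD subunits and 0 of 11 methyl donor genes, against 2.6% of all genes. A gene was counted if any of its windows held a run. Listed genes with no examined window were left out of these counts. Every run searched contains CpG, and genes were not matched for CpG content or number of windows. A link of the run to the falls was not tested.

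**Figure D3:**
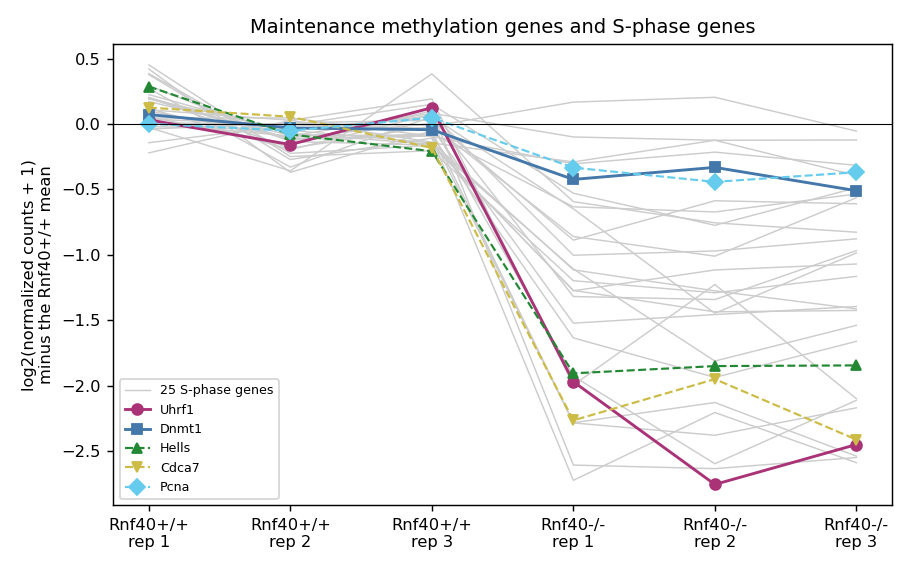
log2(normalized counts + 1) minus the Rnf40+/+ mean of each gene (vertical axis) in the 6 libraries (horizontal axis), for Uhrf1, Dnmt1, Hells, Cdca7 and Pcna in color and the 25 S-phase genes in gray. Uhrf1, Hells and Cdca7 run among the S-phase genes that fell most, whereas Dnmt1 and Pcna stay near -0.4, above most of them.

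Of the genes around the TET reaction, Idh1 and Idh2 had the largest falls past the threshold and Tdg was the gene that rose. Of 18 listed, 17 were tested, 8 were lower, 1 was higher and 8 did not pass the threshold, with a median log2 fold change of -0.30. Among all genes tested, 47.4% were called, 24.1% lower and 23.3% higher. Idh1 and Idh2 encode isocitrate dehydrogenases that make the cosubstrate of TET enzymes. Idh1 had 2471, 2501 and 2404 normalized counts in Rnf40+/+ and 1181, 1260 and 1239 in Rnf40-/- libraries (log2 fold change -1.003, standard error 0.06, limma adjusted p = 2.17e-07). Idh2 had 1441, 1277 and 1508 against 671, 769 and 736.5 (log2 fold change -0.96). Apex1, an endonuclease of base excision repair, had a log2 fold change of -0.71. Tdg encodes the glycosylase that removes oxidized cytosines made by TET enzymes. It had 904, 903.5 and 969 normalized counts in Rnf40+/+ and 1379, 1446 and 1447 in Rnf40-/- libraries, well apart (log2 fold change 0.62, standard error 0.07, limma adjusted p = 1.69e-05).

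**Figure D4:**
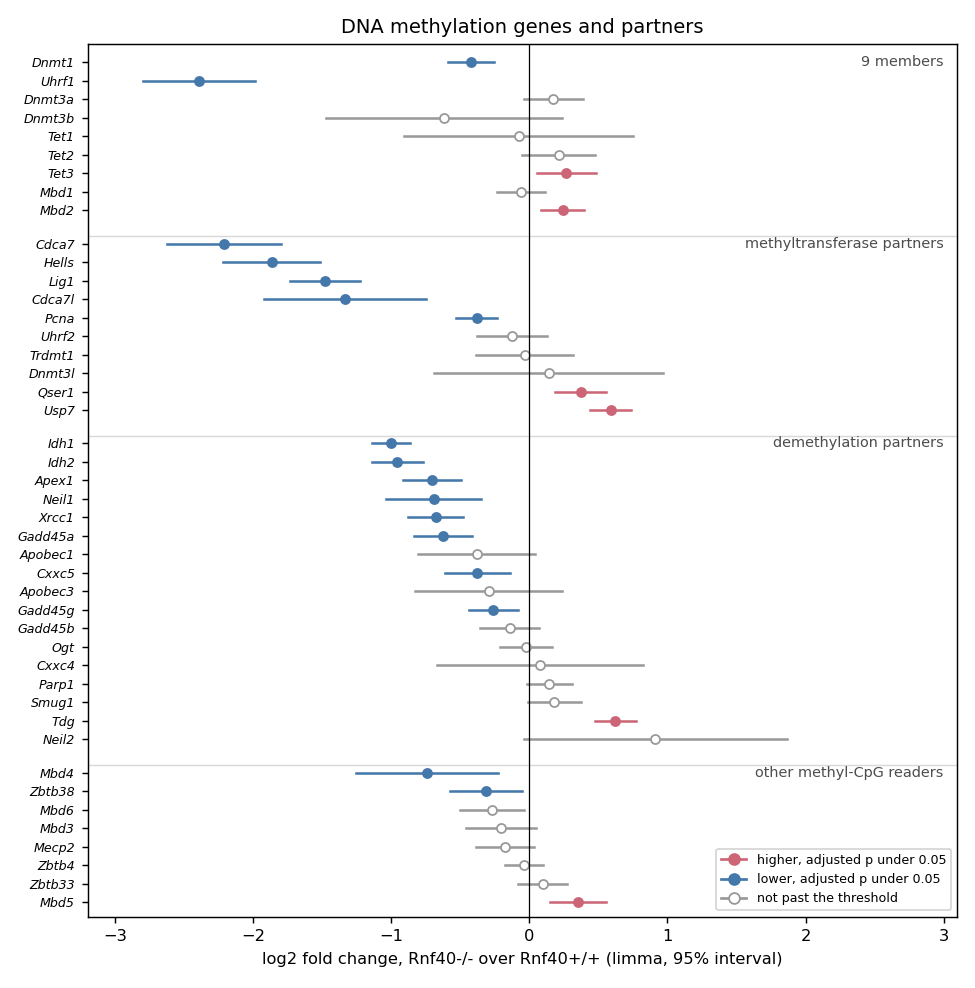
log2 fold change of Rnf40-/- over Rnf40+/+ MEFs (horizontal axis) with its 95% interval for the 9 members and the tested genes of 3 partner lists, colored where the adjusted p from limma was under 0.05. Uhrf1 at -2.39, Cdca7 at -2.21 and Hells at -1.87 lie farthest to the left, and Tdg at 0.62 is the rightmost gene past the threshold.

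Among further readers and corepressor subunits, Chd3 and Mbd4 had the largest falls. Of 8 other genes listed as methyl-CpG readers, 2 were lower (Mbd4, -0.74, and Zbtb38, -0.31), 1 was higher (Mbd5, 0.35, a protein that carries an MBD but is not known to bind methylated CpG) and 5 did not pass the threshold, against 47.4% of all genes that passed. The list was not limited to proteins known to bind methylated CpG. The number called lower varied between 0 and 4 with single libraries left out, being 1 when Rnf40+/+ replicate 1, Rnf40-/- replicate 1 or Rnf40-/- replicate 2 was dropped, 4 when Rnf40+/+ replicate 3 was dropped and 0 when Rnf40-/- replicate 3 was dropped. Of 11 NuRD subunits, 4 were lower, 1 was higher and 6 did not pass the threshold, with a median log2 fold change of -0.09, and this share called was near that of all genes (47.4%). Chd3, a remodeling ATPase, had 4967, 4957 and 4981 normalized counts in Rnf40+/+ and 1998, 1951 and 1975 in Rnf40-/- libraries (log2 fold change -1.33, standard error 0.06, limma adjusted p = 1.51e-08). Its paralog Chd4 had a log2 fold change of -0.0046 (limma adjusted p = 0.964). Rbbp7 (-0.43) and Mta3 (-0.26) were next in size, and Gatad2a (0.21) was the subunit that rose. With a single library left out, 1 subunit was called higher without Rnf40+/+ replicate 2 and 0 without any of the other 5 libraries.

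The methyl donor S-adenosylmethionine comes from the methionine and folate cycles. Of 13 listed genes, 12 were in the table and tested, 6 were lower, 3 were higher and 3 did not pass the threshold, with a median log2 fold change of -0.13 (24.1% lower and 23.3% higher among all genes). Shmt1 (-1.07) and Shmt2 (-0.73), the serine hydroxymethyltransferases, were among the genes that fell. Mthfd1 (0.81), another folate enzyme, and Ahcyl1 (0.49) and Ahcyl2 (0.28), relatives of the hydrolase that clears S-adenosylhomocysteine, rose. Mat2a, the synthetase that makes S-adenosylmethionine, had a log2 fold change of -0.06 (limma adjusted p = 0.583).

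Most germline genes that promoter methylation is known to silence in somatic cells had few reads or none. Of 20 listed, 5 were without a single read and 4 passed the filter on low reads, and none of these 4 passed the threshold with limma (0 had an unadjusted p under 0.05, and edgeR and DESeq2 called 0 too). Their log2 fold changes were -0.53 for Brdt (13 to 31 reads), -0.47 for Zcwpw1 (39 to 129 reads), -0.28 for Sycp3 (11 to 26 reads) and 0.03 for Rpl10l (124 to 340 reads), with a median of -0.37. Together the 16 genes below the filter had 20.3, 19.4 and 24.8 normalized counts in Rnf40+/+ and 46.9, 54.3 and 50.04 in Rnf40-/- libraries, a sum formed after the values were seen. The sum was higher in each Rnf40-/- library, from 46 to 53 reads against 17 to 31. When all genes with a read were tested, Sycp1, a synaptonemal complex gene (1, 0 and 0 reads against 12, 5 and 19, limma adjusted p = 0.00117), Dazl, a germ cell RNA-binding protein (1, 0 and 5 reads against 7, 13 and 10, limma adjusted p = 0.0123), and Asz1, a piRNA pathway gene (0, 0 and 0 reads against 9, 2 and 1, limma adjusted p = 0.0302), were called higher. Taf7l, a testis TFIID subunit (5, 10 and 16 reads against 1, 0 and 0, limma adjusted p = 0.000884), was called lower. In the same fit, 4001 of all 22545 genes tested were called higher and 3844 lower. At these depths a gene with 3 reads, taken as the limit of detection, had 2.4 to 3.58 normalized counts. DNA methylation itself was not measured in these libraries.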

How the data were processed

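The authors aligned reads of strand-specific libraries to mouse transcripts (mm9), and normalization was by DESeq. The submitters' processing notes name Bowtie2 (version 2.1.0) and DESeq (version 1.14.0), and the counting tool is not given in the sources used here. Per gene, the deposited signal equals reads divided by 1 size factor per library. Whole reads were recovered from 100% of the positive values (tolerance 0.01 reads).

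On these reads, low genes were removed by edgeR's filterByExpr (version 4.0.16), given the genotypes. Differences were tested with limma (version 3.58.1) on log2(normalized count + 1) with a variance trend, with no covariate, and p-values were adjusted over the whole table by Benjamini and Hochberg's method. On the recovered reads, edgeR's quasi-likelihood test called 3857 genes higher and 3940 lower, and limma 3809 and 3955. DESeq2 (version 1.42.0), other normalizations, filters and pseudocounts, a replicate block and each library left out were further alternatives. No pair of libraries was a duplicate (chi-square per gene from 5.37 to 118). The tests were checked on simulated data. Other software was R (version 4.3.3), Python (version 3.11.15) and scipy (version 1.17.1).

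The members and gene lists, the lists from general knowledge, were chosen with earlier results of these data known. All members are named, together with up to 3 called genes with the largest rise and 3 with the largest fall in each list (mean above 15), and the genes most like each called member. Other genes named were chosen after their values were seen. A gene that the rule would name is not reported here. The length by merged exons and the criteria of the study were added after seeing the data. Adgre1 was matched as Emr1 through RefSeq synonyms, and Amd1 was not matched. Gene positions are from the GENCODE annotation of mm9 (NCBIM37). Counting intervals were not used, and the limit of 3 reads covers counting error only.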

Additional observations from a re-analysis of the deposited data

How the results depend on the processing

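The falls of Uhrf1 (log2 fold change from -2.60 to -2.21) and Dnmt1 (from -0.47 to -0.37) stayed past the adjusted threshold in every alternative fit, and 2 members were called lower in each. The number of members called higher was 2 under most settings, 1 with no filter on low values, and between 0 and 3 with single libraries left out. By the criteria of the study 0 members were higher and 1 was lower. Tet1 ranged from -0.49 to 0.18 and turned positive without Rnf40+/+ replicate 1 (0.077), Rnf40+/+ replicate 3 (0.18) or Rnf40-/- replicate 3 (0.15), with an adjusted p of 0.752 or above from limma, so its direction is not known. The genes called in all were 3458 to 4299 higher and 3536 to 4196 lower with all libraries, and 3051 to 3817 higher and 3342 to 3896 lower with a library left out, and upper-quartile normalization raised the share of higher calls most (4299 higher, 3536 lower), with a shift of the median log2 fold change to 0.044.

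Among the lists, upper-quartile normalization called 2 demethylation partners higher and 1 methyl-CpG reader lower, and edgeR and no filter also called 1 such reader lower. No filter called 3 germline genes higher and 1 lower, beside 4001 higher and 3844 lower of all 22545 genes tested. With single libraries left out, 1 to 2 demethylation partners, 0 to 1 NuRD subunits and 0 to 2 germline genes were higher and 0 to 4 readers were lower. The difference in the share of Dnmt3a moved to 5.69 percentage points with merged exons. The cause of these changes was not tested. Fits with a library left out have fewer samples.

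The labels do not say whether the replicate numbers pair the libraries. Deviations from the group means had correlations of 0.0118, 0.0174 and 0.0212 between same-numbered libraries. Between libraries with different numbers these were -0.0531 to 0.0371, so the correlations cannot settle it. With a replicate block 2 members were higher and 2 lower, and 4021 genes were higher and 4196 lower in all. Dnmt3b (10 to 35 reads), Tet1 (15 to 50 reads) and most germline genes had few reads.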
